A study of Mus musculus with 12 samples.

Results

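The change in alveolar macrophages that lack Bach2 but keep Bach1 was described across genes from 6 of the 12 arrays of the series: 3 arrays from Bach2 knockout (Bach2 KO) mice and 3 from wild-type (WT) mice. The arrays were chosen by their labelled genotype alone. Each array held RNA from 1 mouse, measured in 1 colour (Cy3) on an Agilent mouse array. The mice were C57BL/6 females of 8 to 9 weeks, and the macrophages were sorted by flow cytometry from fluid washed out of the lung. The WT mice carry neither deletion, the Bach2 KO mice carry the Bach2 deletion alone, and the remaining 6 arrays come from Bach1 KO mice and from mice lacking both factors. The labels name no promoter or Cre that would limit the deletion to macrophages and do not say which part of Bach2 was removed.

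Bach2 is a transcription factor of the BTB and basic leucine zipper class that pairs with small Maf proteins and represses genes with AP-1-like sites of the type bound by Maf proteins. Bach1 is its close relative and is best known for repressing heme oxygenase. Alveolar macrophages live in the air spaces, take up and break down surfactant, and depend on GM-CSF, TGF-beta and the nuclear receptor PPAR-gamma for their identity. Mice without Bach2 are known to accumulate surfactant in the lung, a state called pulmonary alveolar proteinosis, so the comparison asks which genes of these cells differ when Bach2 is lost while Bach1 remains.

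Signals are given as normalized log2 signal: log2 of the scanner's processed signal minus the array's 75th percentile, so that 0 is the level of that percentile and 1 unit is a doubling. Between 56.3% and 58.1% of spots were well above background on the WT arrays. The Bach2 KO arrays spread more widely, at 48.2%, 54.8% and 72.4% for replicates 1 to 3, and replicate 3 was the only one of the 6 on a second slide. The 75th percentile itself lay at 1558, 1763 and 1504 intensity units on the WT arrays and at 2614, 2155 and 3082 on the Bach2 KO arrays, with no overlap. Pairs of WT arrays correlated at 0.940 to 0.969 over genes, pairs of Bach2 KO arrays at 0.972 to 0.987, and pairs across genotype at 0.814 to 0.915. On slide 1 the WT arrays lay in row 1 with 1 Bach1 KO array, and Bach2 KO replicates 1 and 2 lay in row 2 with 2 Bach1 KO arrays. Bach2 KO replicate 3 lay in row 1 of slide 2. The part of row position in the results was not tested.

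The targeted genes were looked at first. Bach1 measured 3.72, 4.28 and 3.77 in WT and 3.81, 4.12 and 3.88 in Bach2 KO, and the groups overlapped. The log2 difference was 0.01 ± 0.32 (SE, n = 3 mice per genotype, limma adjusted p = 0.99 over all probes). Bach2 itself was dim. One of its 2 probes was not well above background on any of the 6 arrays. The other measured -2.42, -2.18 and -8.13 in WT and -5.29, -3.72 and -5.29 in Bach2 KO, was above background on 2 of 3 arrays of each group, and differed by -0.52 ± 1.25 (adjusted p = 0.899). Because the labels do not place the deletion within the gene, these probes do not check the genotype.

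After dim probes were left out, 22336 genes or transcripts were tested, 13452 of them with a gene name. At a Benjamini-Hochberg adjusted p under 0.05, limma called 8518 (38.1% of those tested): 2769 higher in Bach2 KO (12.4%) and 5749 lower (25.7%). An unadjusted p under 0.05 was reached by 10627. Large rises outnumbered large falls although small falls were the more frequent: 650 genes rose and 257 fell by 16-fold or more, while 2546 rose and 4694 fell by 2-fold or more. These counts take each fold as measured, also for genes dim in 1 genotype, where only a bound is known. Cdh5, for example, counted as a 32.6-fold rise though its bound was 10.3-fold. For 417 of the genes called higher no WT array was well above background, and for 75 of those called lower no Bach2 KO array was. The arrays of the groups did not overlap in 8231 of the called genes and in 51.4% of all those tested. The genes named below were mostly picked for small adjusted p-values, so that their arrays do not overlap is a description. The 12 largest measured rises and the 12 largest measured falls were taken only among called genes without overlap. For them the lack of overlap was fixed by the choice. Counts over gene lists are to be read against the 12.4% higher and 25.7% lower over everything tested. A list member that passed the background filter only through Bach2 KO could hardly be anything but higher, so the number above background on all WT arrays is given for lists where several members did so.

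The balance of rises and falls depended on the scaling. The median log2 difference over everything tested was -0.32, and 32.5% of calls were rises. Quantile normalization moved the median to -0.16 with 3461 higher and 4420 lower (43.9% rises). Background correction by normexp followed by quantile normalization gave 3602 higher and 4385 lower (45.1% rises). Scaling to the array median instead moved the median to -0.55. Without any scaling it was 0.37 and the split turned, with 4599 higher and 2171 lower (67.9% rises). Modest falls of broad gene groups are therefore read below against the median of all genes, while the largest changes exceed every one of these shifts.

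**Figure D1:**
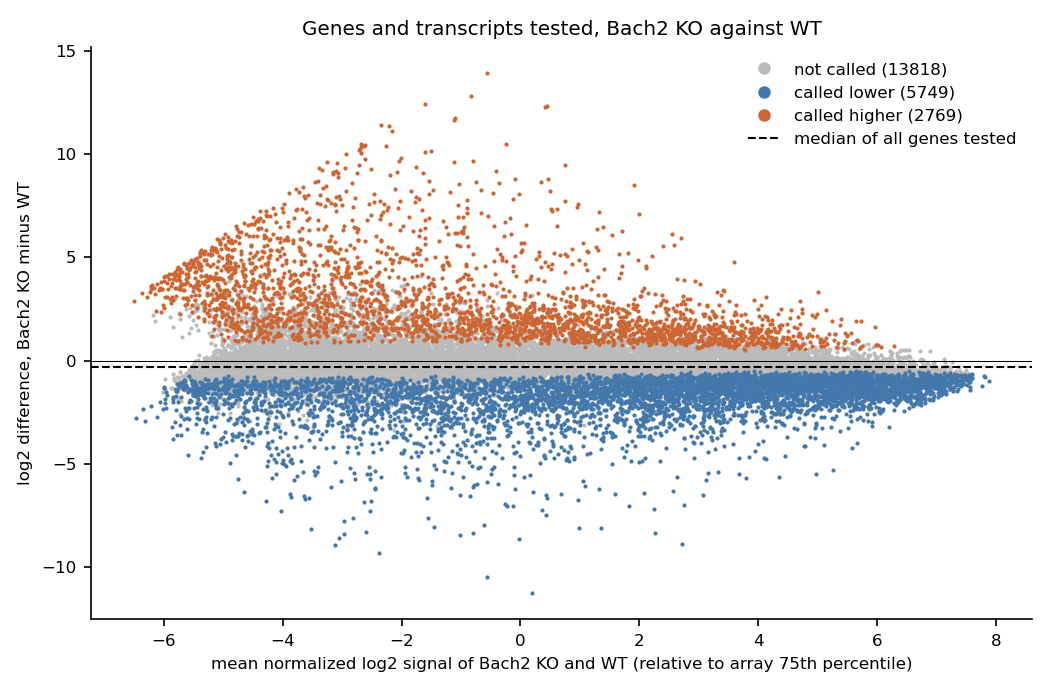
Each point is a gene or transcript tested, with its mean normalized log2 signal over both genotypes on the x axis and the log2 difference, Bach2 KO minus WT, on the y axis. Called rises (2769) reach higher than called falls (5749) reach low, the falls are more numerous, and the dashed line marks the median of all genes at -0.32.

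Among genes measured on all 6 arrays, the largest rises joined signalling adaptors, lipid enzymes and chemokine genes. Pla2g2d, a secreted phospholipase A2, measured -5.35, -4.82 and -5.06 in WT and 3.71, 3.6 and 3.42 in Bach2 KO, a log2 difference of 8.66 ± 0.41 (adjusted p = 1.19e-07). Papss2, which makes the sulfate donor PAPS, went from -4.22, -4.67 and -5.10 to 3.88, 3.93 and 3.96 (8.59 ± 0.47, adjusted p = 2.98e-07). Ccl2, the ligand of the monocyte chemokine receptor Ccr2, was at -2.78, -0.58 and -3.62 against 6.06, 6.35 and 6.04 (8.48 ± 1.19, adjusted p = 0.000272). The WT arrays were widely spread for Ccl2 and close together for the other pair, while the Bach2 KO arrays lay close together for each and never met the WT range.

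Car6, a secreted carbonic anhydrase, rose by 8.04 ± 0.67. Lat2 and Blnk are adaptor proteins of antigen and Fc receptor signalling in haematopoietic cells. Lat2 measured -4.10, -3.94 and -4.07 in WT and 3.69, 3.75 and 3.95 in Bach2 KO (adjusted p = 0.000397), and Blnk -3.36, -3.10 and -2.70 against 3.94, 4.77 and 4.13 (adjusted p = 1.08e-06). The gap between genotypes was many times the spread within either genotype for both adaptors. Marcks, a protein kinase C substrate that links the membrane to actin, rose 172-fold from -2.49, -2.88 and -2.92 to 4.46, 4.88 and 4.64, with the smallest standard error of the 12 rises (7.43 ± 0.25, adjusted p = 2.73e-08). Sphk1, the kinase that makes sphingosine 1-phosphate, rose by 7.32 ± 0.42, and Igf2r, the mannose 6-phosphate receptor that sorts lysosomal enzymes, by 7.24 ± 0.72. Ccr7, the receptor that guides dendritic cells to lymph nodes, measured -0.62, -1.76 and -4.49 in WT and 4.73, 4.88 and 5.16 in Bach2 KO. Its Bach2 KO arrays lay close together and its WT arrays did not, and the groups stayed apart. Tnip3, an inhibitor of NF-kB signalling, and Plbd1, a lysosomal phospholipase-like enzyme, completed the 12 at 7.17 ± 0.50 and 7.56 ± 1.01.

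**Figure D2:**
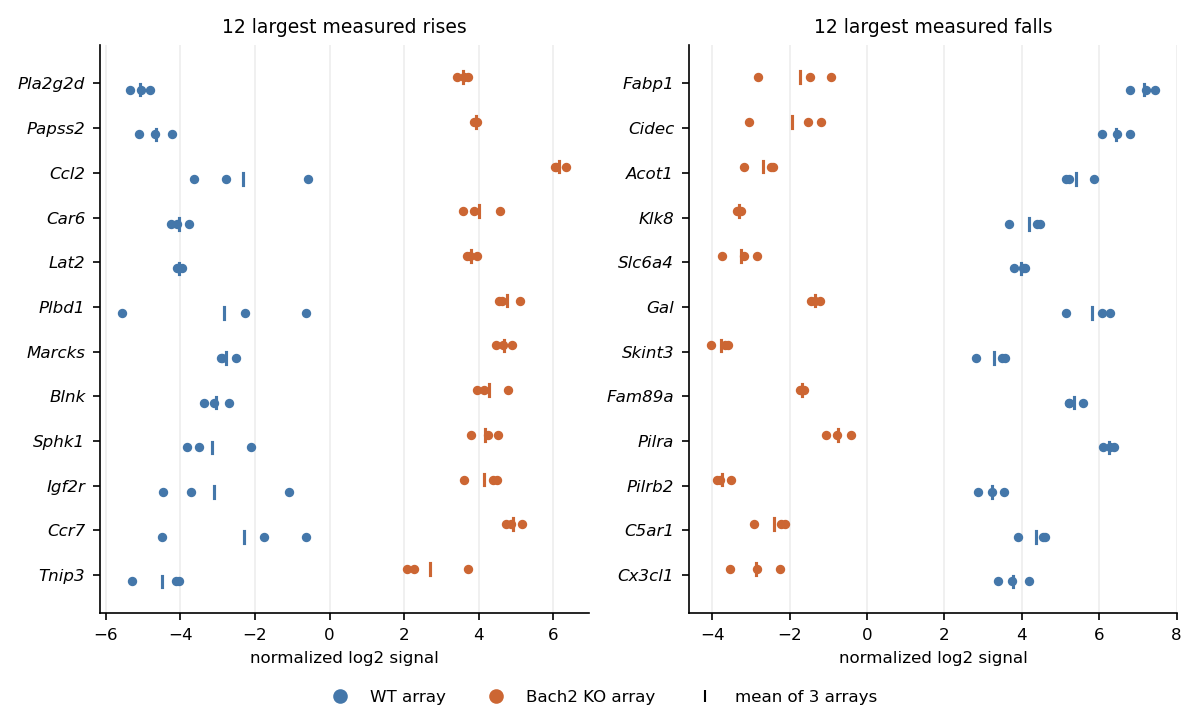
Normalized log2 signal on the x axis for the 12 genes with the largest measured rise (left) and the 12 with the largest measured fall (right), one dot per array and a bar at the mean of 3. The 24 genes were chosen among called genes with no overlap between WT and Bach2 KO arrays.

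In a further set of genes no WT array rose well above background while all 3 Bach2 KO arrays did, so that only a lower bound of the change can be given. Each bound sets the mean of the bright group against the lowest signal called well above background on each dim array, or the probe's own signal where that was higher. Tmem26, a membrane protein, was at 3.01, 3.16 and 4.07 in Bach2 KO and at least 564-fold higher than in WT. The tetraspanin Tspan7 was at 3.54, 4.02 and 2.51 and at least 542-fold higher. Gfi1, a transcriptional repressor of blood cell development, was at 3.17, 3.19 and 2.41 and at least 403-fold higher (adjusted p = 1.67e-07). The same rule placed Ccl24, Retnla, Ccl7, Hbegf and Oit3 above these genes, with bounds from 591-fold (Oit3) to 4454-fold (Ccl24).

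The largest measured falls were as wide. Pilra and Pilrb2 encode paired immunoglobulin-like receptors, one inhibitory and one activating. Pilra measured 6.11, 6.39 and 6.27 in WT and -0.78, -0.42 and -1.06 in Bach2 KO (-7.01 ± 0.26, adjusted p = 3.03e-08). Pilrb2 measured 3.24, 3.55 and 2.86 against -3.79, -3.88 and -3.52 (-6.95 ± 0.29, adjusted p = 6e-08). Both receptors were bright in every WT mouse and far lower in every Bach2 KO mouse, though still well above background on all 3 Bach2 KO arrays. Pilra remained the brighter of the pair in Bach2 KO. The receptors are close relatives in sequence, and cross-hybridization between them was not tested. Fam89a went from 5.59, 5.21 and 5.23 to -1.72, -1.69 and -1.62, and Skint3, a relative of the butyrophilins, from 2.83, 3.56 and 3.5 to -3.66, -3.6 and -4.03. C5ar1, the receptor for the complement fragment C5a, fell 109-fold, from 4.56, 3.90 and 4.61 to -2.21, -2.91 and -2.11 (adjusted p = 1.19e-07). Cx3cl1, the membrane-bound chemokine fractalkine, fell 100.4-fold, from 3.74, 3.39 and 4.18 to -2.25, -2.85 and -3.54 (adjusted p = 2.72e-06). Neither showed any overlap between genotypes, which the choice of these genes required. Among genes not above background on any Bach2 KO array, Htr2c, a serotonin receptor, was at least 234-fold lower, and Lypd6b and Pnpla5, a lipid hydrolase of the patatin family, were at least 77.3-fold and 71-fold lower. Htr2c lost its call in the values the authors deposited in the series matrix (-2.25, adjusted p = 0.0578).

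Genes that mark alveolar macrophages were lower as a group, but unevenly. Of 35 such genes on the array, 34 were tested, 24 fell, 2 rose and 8 were not called, with a median difference of -1.18 against -0.32 for all genes. Marco, a scavenger receptor for particles and bacteria, measured 8.12, 7.41 and 8.21 in WT and 3.67, 2.75 and 1.44 in Bach2 KO, a 39.1-fold fall (-5.29 ± 0.51, adjusted p = 1.85e-05). Siglecf, the sialic acid-binding lectin used to sort these cells in many laboratories, measured 5.68, 6.22 and 5.31 against -0.64, 0.51 and -1.66, an 80.5-fold fall (-6.33 ± 0.47, adjusted p = 2.36e-06). Bach2 KO replicate 3 was the lowest for both genes, and no Bach2 KO array came near a WT array. The keratin gene Krt79 fell 44.4-fold, from 8.03, 7.51 and 7.57 to 2.62, 2.22 and 1.86, and Il18, an inflammasome-processed cytokine, 55.9-fold, from 6.18, 5.85 and 6.04 to 0.08, 0.53 and 0.05. Epcam, an adhesion molecule, fell by 4.73 on the log2 scale.

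Other identity genes moved little or not at all. Itgax, which encodes CD11c, measured 6.35, 6.30 and 6.59 in WT and 5.96, 5.97 and 5.18 in Bach2 KO (-0.71 ± 0.26, adjusted p = 0.0473), a call that ended in 12 of the alternatives and turned to 0.16, also without a call, in 2 more, quantile normalization with and without normexp. Mrc1, the mannose receptor, overlapped between genotypes at 5.69, 6.04 and 5.33 and 5.19, 5.53 and 5.73 (-0.20 ± 0.23, adjusted p = 0.501). Cdh1, which encodes E-cadherin, went the other way, from 2.61, 2.28 and 1.49 to 4.46, 4.29 and 4.46 (2.28 ± 0.27, adjusted p = 7.88e-05). Under quantile normalization 16 of the 34 marker genes were called lower and 3 higher, with a median of -0.34 against -0.16 for all genes. In bulk samples such as these, fewer cells of a type and less RNA per cell cannot be told apart.

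The growth factor receptors and regulators of these cells named here differed by less than the most strongly changed marker genes. Read by their brightest probes in the main scaling, all but Tgfbr1 also differed by less than the median marker (-1.18). Pparg, the nuclear receptor that drives their lipid handling, measured 5.92, 5.99 and 5.55 in WT and 4.65, 4.94 and 4.90 in Bach2 KO (-0.99 ± 0.22, adjusted p = 0.00544). The GM-CSF receptor chains Csf2ra and Csf2rb differed by -0.61 ± 0.21 (adjusted p = 0.0406) and -0.97 ± 0.19 (adjusted p = 0.00271), while Csf2rb2 did not pass (0.02 ± 0.21, adjusted p = 0.941). These calls rested on the scaling. Under quantile normalization Pparg was at -0.26 (adjusted p = 0.383), Csf2rb at -0.17 (adjusted p = 0.423) and Csf2ra at 0.21 (adjusted p = 0.357). Tgfbr1 and Tgfbr2, the TGF-beta receptor chains, fell by 1.33 and 0.89 in the main scaling and were at -0.70 and -0.24 without a call under quantile normalization. Csf1r, the receptor for M-CSF, measured 5.86, 5.63 and 6.27 and 5.59, 5.52 and 5.51 by its brightest probe and was not called (adjusted p = 0.147), but its other 2 probes differed by 1.71 and 1.68 in the opposite direction, so the gene's change is uncertain.

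Of the 29 tested genes in the whole list of growth factor and cytokine receptors, those above included, 10 rose and 10 fell, beside 12.4% higher and 25.7% lower over everything tested. Il1rl1, the receptor for IL-33, was not above background on any WT array and was at least 50-fold higher in Bach2 KO, at 0.09, 0.40 and -0.75. Il1r1, the signalling receptor for IL-1, rose from -2.52, -1.27 and -2.14 to 2.79, 2.75 and 2.90 (4.79 ± 0.67, adjusted p = 0.000256). Il10ra, the ligand-binding chain of the IL-10 receptor, fell from 3.95, 4.03 and 4.21 to 2.50, 2.09 and 1.93 (-1.89 ± 0.26, adjusted p = 0.000218), and Il6ra fell by 1.55. The groups did not overlap for any of these 4 genes.

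Transcription factors of the macrophage lineage separated into strong rises, strong falls and a set with no call. Of 40 on the array, 36 were tested, 10 rose, 11 fell and 15 were not called. Maf, a large Maf factor of macrophages and lymphocytes, was above background on 1 of 3 WT arrays, at -7.76, -2.16 and -7.88, and on all Bach2 KO arrays, at 2.06, 2.45 and 2.28 (8.20 ± 1.77, adjusted p = 0.00422), a call lost in the authors' deposited series matrix (adjusted p = 0.319). Irf4, a factor of alternative activation and lymphocytes, rose from -0.21, 0.09 and -0.92 to 3.42, 3.44 and 4.10 (4.0 ± 0.66, adjusted p = 0.00083). Bhlhe40 rose from 2.90, 3.56 and 2.78 to 5.15, 4.98 and 5.47 (2.12 ± 0.31, adjusted p = 0.000402). Each of these 3 factors was higher in every Bach2 KO mouse than in any WT mouse.

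Id1 and Id3 are inhibitors of basic helix-loop-helix factors and are known targets of BMP and TGF-beta signals. Id1 fell 88.3-fold, from 4.98, 4.18 and 5.30 to -1.19, -1.21 and -2.53 (-6.46 ± 0.42, adjusted p = 9.14e-07), and Id3 fell 24-fold, from 2.85, 2.62 and 2.61 to -1.70, -1.14 and -2.83 (adjusted p = 9.98e-05). Cebpd fell from 5.91, 5.67 and 5.58 to 3.26, 3.40 and 2.72 (-2.60 ± 0.26, adjusted p = 2.76e-05), and Irf8, a monocyte and dendritic cell factor, by 1.39 (adjusted p = 0.000383). Prdm1, which encodes Blimp-1 and is a textbook target of Bach2 repression in B cells, was lower and not higher in these macrophages, at 2.23, 2.71 and 1.97 in WT and 0.22, 0.49 and 0.30 in Bach2 KO (-1.97 ± 0.35, adjusted p = 0.00129). Without scaling the difference of Prdm1 was -1.28 (adjusted p = 0.0512). The myeloid master factor Spi1 was not called (-0.12 ± 0.54, adjusted p = 0.882), nor were Klf4 (adjusted p = 0.0773), Egr2 (adjusted p = 0.356) and Cebpa (adjusted p = 0.0915). For Spi1 and Klf4 the groups overlapped. Egr2 and Cebpa were called higher under quantile normalization, at 0.95 and 1.36. Runx3 was not called by its brightest probe (-0.03 ± 0.39), while another probe of the gene rose by 7.64 (adjusted p = 1.54e-06), so no direction is given for it.

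**Figure D3:**
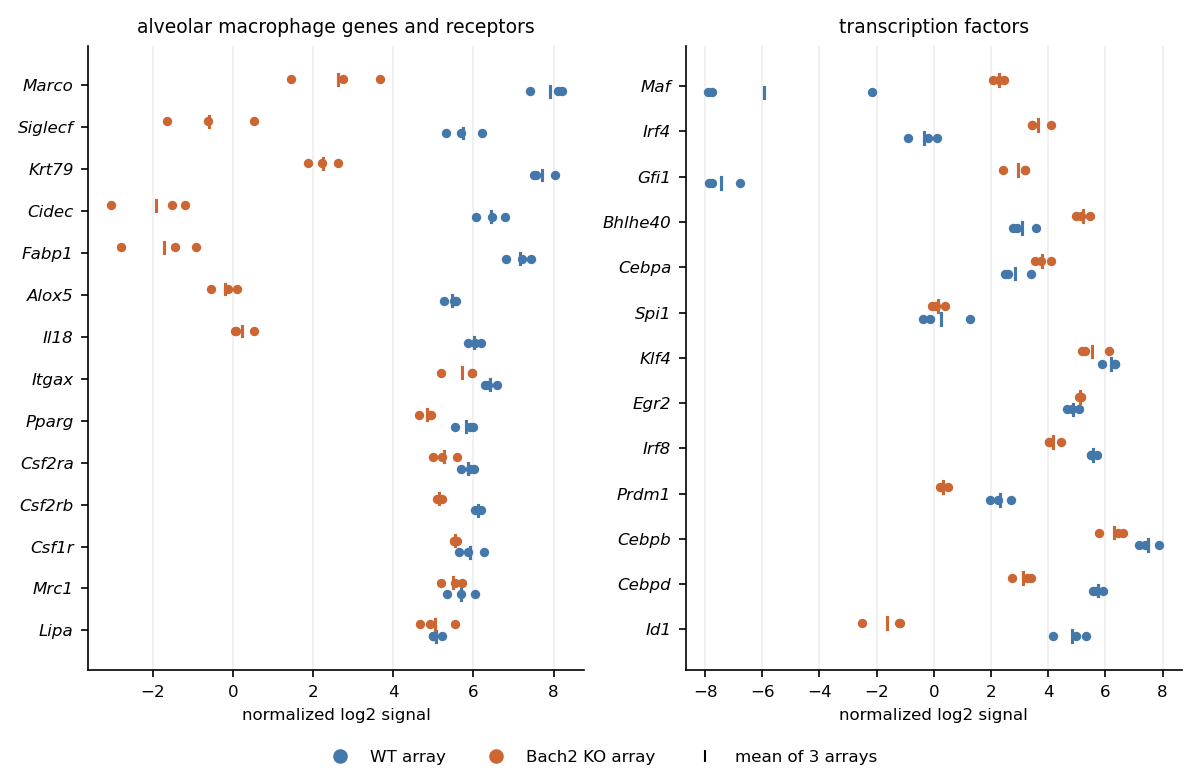
Normalized log2 signal on the x axis for marker genes and receptors of alveolar macrophages (left) and lineage transcription factors (right), one dot per array and a bar at the mean of 3. Marco, Siglecf, Cidec and Fabp1 are far lower in Bach2 KO, whereas Pparg, Csf2ra, Csf1r, Mrc1 and Lipa lie close together or overlap, and Maf, Irf4 and Gfi1 are higher.

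Among the partners of Bach2, the small Maf gene Mafk rose from 1.72, 2.08 and 1.74 to 3.63, 3.11 and 3.85 (1.68 ± 0.27, adjusted p = 0.000778), and Maff was not called (0.52 ± 0.27, adjusted p = 0.151) except under other scalings, at 0.99 with quantile normalization. Nfe2, a CNC factor that shares their sites, fell by 1.39 (adjusted p = 0.011), a call lost within slide 1 (adjusted p = 0.0756) and without scaling (adjusted p = 0.182). Of 8 Bach, CNC and small Maf genes tested, these were the 1 called higher and the 1 called lower. Within the AP-1 family, whose sites resemble those of Bach2, 4 of 11 tested genes rose and 5 fell. Junb rose from -2.64, -0.11 and -3.64 to 2.0, 1.09 and 2.87 (4.12 ± 0.77, adjusted p = 0.00188) and Atf3 from 1.45, 2.01 and 2.55 to 4.61, 4.45 and 5.0 (2.69 ± 0.36, adjusted p = 0.000188). Jund fell from 4.77, 4.59 and 5.73 to 3.18, 2.84 and 1.14 (-2.64 ± 0.58, adjusted p = 0.00455) and Fosb by 2.13 (adjusted p = 0.00256). Immediate early genes respond to handling of cells: of 15 tested, 5 rose and 3 fell, Egr1 and Ier3 among the rises (2.57 ± 0.37 and 2.78 ± 0.33) and Btg2 and Nr4a1 among the falls (-2.65 ± 0.46 and -2.63 ± 0.38). Their summed linear signal, in multiples of each array's 75th percentile, was 193 to 232 in WT and 191 to 225 in Bach2 KO. This sum joins bright genes that moved apart: Socs3 went from 3.91, 2.44 and 4.48 to 5.97, 5.86 and 5.40, and Btg2 from 4.61, 6.10 and 3.98 to 2.32, 2.62 and 1.78. Whether handling differed was not tested.

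Chemokine genes were mostly higher. Of 29 on the array, 22 were tested, 14 rose and 5 fell, with a median difference of 2.28, or 2.11 with genes below background in WT taken at their bound. 18 of the 22 were above background on all WT arrays. Ccl8, another ligand of monocyte and T cell receptors, measured -4.77, -4.73 and -5.46 in WT and 1.86, 2.65 and 1.21 in Bach2 KO, a 119-fold rise (6.89 ± 0.44, adjusted p = 8.1e-07). Cxcl9, an interferon-induced attractant of T cells, fell from -0.66, 0.18 and -0.05 to -2.57, -2.23 and -2.88 (-2.38 ± 0.34, adjusted p = 0.000333). Ppbp was at least 3.87-fold higher, but its call ended within slide 1 (adjusted p = 0.0839) and in 5 of the 6 sets that leave out a mouse. Chemokine receptors rose in 5 of 14 tested genes and fell in 2, with 10 of the 14 above background on all WT arrays. Cxcr6 rose from -5.84, -3.40 and -5.12 to -0.36, 0.27 and -0.73 (4.51 ± 0.56, adjusted p = 0.000122), where 2 of 3 WT arrays were above background. Cxcr2, a receptor of neutrophils, fell by 2.99 and was above background on 1 of 3 Bach2 KO arrays. Ccr2 and Cx3cr1, by which monocytes are usually divided, were not called (adjusted p = 0.0638 and 0.819).

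Secreted growth factors rose in 10 of 24 tested genes and fell in 3, from 33 on the array, of which 16 were above background on all WT arrays. Vegfa, the main growth factor of blood vessels, was not above background on any WT array, was at 1.1, 0.47 and 0.32 in Bach2 KO and was at least 82-fold higher (adjusted p = 3.04e-07). Fgf1, an epithelial and mesenchymal growth factor, fell from 1.43, 1.89 and 0.21 to -4.54, -4.29 and -4.99 (-5.79 ± 0.55, adjusted p = 1.57e-05), with 2 of 3 Bach2 KO arrays above background. Tgfb1 overlapped between genotypes at 1.52, 1.60 and 0.20 and 1.86, 2.60 and 0.52 (adjusted p = 0.605).

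Some genes that cut matrix rose by large folds. Of 25 metalloproteinases, inhibitors and fibrinolysis genes on the array, 18 were tested, 10 rose and 3 fell, with a median difference of 3.77, or 2.75 with dim genes at their bound. 12 of these 18 were above background on all WT arrays. Mmp13, a collagenase, was not above background on any WT array and measured 0.89, 1.08 and 3.11 in Bach2 KO, at least 171-fold higher (adjusted p = 4.67e-07). Mmp12, the macrophage elastase, measured -5.65, -3.94 and -5.40 in WT, above background on 2 of 3 arrays, and 3.49, 4.16 and 4.88 in Bach2 KO (9.17 ± 0.52, adjusted p = 3.36e-07). Timp1, an inhibitor of metalloproteinases, rose 34-fold, from -0.52, -0.62 and 0.16 to 5.0, 5.01 and 4.26 (5.09 ± 0.31, adjusted p = 5.73e-07). Mmp8, a collagenase of neutrophils, went the other way, from 3.28, 2.73 and 3.73 to -1.02, -1.28 and -2.53 (-4.86 ± 0.38, adjusted p = 3.55e-06). No array of one genotype entered the range of the other for these genes.

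Extracellular matrix genes rose in 11 of 23 tested and fell in 3, but only 14 of the 23 were above background on all WT arrays while all 23 were on the Bach2 KO arrays. Thbs1, which encodes thrombospondin 1, was at least 277-fold higher in Bach2 KO, at 1.97, 2.07 and 3.11. The heparan sulfate proteoglycans Sdc4 and Sdc1 were at least 313-fold and 27.8-fold higher. Col4a1, a basement membrane collagen, was at least 15.8-fold higher. None of these 4 genes was above background on any WT array. Col14a1 fell from 0.19, 1.22 and -0.04 to -2.65, -4.06 and -2.73 (-3.61 ± 0.59, adjusted p = 0.00107). Integrin genes split: Itgb3, the beta chain of the vitronectin receptor, rose 217-fold to 3.22, 2.78 and 2.95, with 2 of 3 WT arrays above background, and Itgal, the alpha chain of LFA-1, fell from 2.68, 3.67 and 3.12 to -0.34, 0.12 and -0.89 (-3.53 ± 0.32, adjusted p = 1.1e-05).

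Some of the genes named here hold, within the 250 bases before an annotated start, the AP-1 core that is part of the longer sites bound by Bach2 with small Maf proteins. Of 167 named genes that were called and had a promoter in the table, 11 held such a match, and the 4 shown were picked from them after their values were seen, 3 with large rises and 1 with a large fall. Capitals mark TGAGTCA, or its reverse complement TGACTCA, on the strand of the gene, 5′ to 3′, in RefSeq sequence of build GRCm38.p6. The windows lie at chr9:7347124-7347373 for Mmp12, chr9:7272264-7272513 for Mmp13 and chr11:116531587-116531836 for Sphk1 on the plus strand, and at chr6:113434765-113435014 on the minus strand for Cidec, which encodes a lipid droplet protein. The match begins 44, 35, 50 and 96 bases before the start, respectively.
Mmp12: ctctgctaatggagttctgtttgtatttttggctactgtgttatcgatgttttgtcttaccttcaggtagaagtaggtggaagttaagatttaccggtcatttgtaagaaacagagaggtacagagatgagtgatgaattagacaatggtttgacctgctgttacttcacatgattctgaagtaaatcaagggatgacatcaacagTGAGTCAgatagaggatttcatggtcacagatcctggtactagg
Mmp13: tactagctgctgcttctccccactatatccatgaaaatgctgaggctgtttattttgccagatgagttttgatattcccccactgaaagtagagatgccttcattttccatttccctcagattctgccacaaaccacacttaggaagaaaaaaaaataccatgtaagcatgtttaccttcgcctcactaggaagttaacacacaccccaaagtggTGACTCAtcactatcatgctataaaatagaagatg
Sphk1: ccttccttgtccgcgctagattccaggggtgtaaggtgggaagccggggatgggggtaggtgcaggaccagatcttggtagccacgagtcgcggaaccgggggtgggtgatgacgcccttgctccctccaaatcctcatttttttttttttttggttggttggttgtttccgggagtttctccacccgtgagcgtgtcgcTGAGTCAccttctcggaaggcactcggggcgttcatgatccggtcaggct
Cidec: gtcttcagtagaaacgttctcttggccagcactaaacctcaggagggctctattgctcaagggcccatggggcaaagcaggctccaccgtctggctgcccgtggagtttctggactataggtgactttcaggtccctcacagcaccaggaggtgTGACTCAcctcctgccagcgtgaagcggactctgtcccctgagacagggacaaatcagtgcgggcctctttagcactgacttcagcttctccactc

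On either strand, TGAGTCA was held by 94 of 1559 genes called higher that had a promoter in the table (6.03%), 130 of 3075 called lower (4.23%), 459 of 10787 tested (4.26%) and 1395 of all 27025 in the table (5.16%). A match is a run of letters and not a shown binding site, and most of the genes that rose have none in this window.

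Genes of alternative activation, a macrophage state driven by IL-4 and IL-13, rose in 15 of 24 tested and fell in 4, 20 of the 24 being above background on all WT arrays, with a median of 1.35 against -0.32 for all genes. Arg1, the arginase of this state, was above background on 1 of 3 WT arrays, at -7.79, -2.70 and -6.67, and bright on every Bach2 KO array, at 6.35, 6.40 and 6.87 (12.26 ± 1.57, adjusted p = 0.000146). Pdcd1lg2, the T cell-inhibiting ligand PD-L2, measured 1.34, 2.13 and 1.76 in WT and 4.90, 5.36 and 5.07 in Bach2 KO, a 10.3-fold rise (3.37 ± 0.23, adjusted p = 1.17e-06). Socs1, a feedback inhibitor of cytokine signalling, rose 22.4-fold, from -0.41, -0.64 and 0.69 to 4.53, 4.44 and 4.11 (4.48 ± 0.33, adjusted p = 2.22e-06). Flt1, a VEGF receptor in the same list, fell, from 6.44 and 5.82 in WT, where 1 outlier spot was left out, to 2.10, 1.47 and 1.71 in Bach2 KO (adjusted p = 1.08e-05). No WT array met the Bach2 KO range for these 4 genes.

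Genes of interstitial macrophages, the macrophages of the lung wall, rose in 14 of 24 tested and fell in 2, with 16 of the 24 above background on all WT arrays. C1qa and C1qb encode chains of the complement component C1q. C1qb measured -2.87, -2.83 and -2.22 in WT and 3.64, 3.34 and 4.62 in Bach2 KO (6.51 ± 0.40, adjusted p = 5.7e-07). C1qa was above background on 1 of 3 WT arrays, at -6.49, -3.86 and -6.12, and measured 4.62 and 5.38 on Bach2 KO arrays 2 and 3, the spot of array 1 being an outlier that was left out (adjusted p = 4.39e-06). Fcrls, a receptor-like gene of tissue macrophages, rose from -4.56, -4.47 and -4.0 to 0.32, 0.09 and 2.13 (5.19 ± 0.55, adjusted p = 3.62e-05). Selenop, a selenium carrier, fell from 6.16, 6.70 and 6.00 to 3.02, 4.03 and 2.68 (-3.04 ± 0.34, adjusted p = 5.6e-05). Among monocyte genes, 5 of 20 rose and 8 fell. F13a1, the coagulation factor XIII A chain, was at least 186-fold higher at 1.75, 2.05 and 1.62, while Cd300e and Treml4, receptors of patrolling monocytes, fell to -6.67, -5.24 and -4.57 and -2.07, -2.61 and -1.34 from 2.35, 2.75 and 2.65 and 1.12, 1.84 and 1.79.

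MHC class II genes were divided. Of 16 tested, 7 rose and 6 fell. H2-Eb2, a beta chain gene, was at least 147-fold higher at 0.97, 1.96 and 1.49, and H2-Ob, a regulator of peptide loading, rose from -3.26, -3.48 and -2.58 to 0.08, -0.51 and 0.38 (3.09 ± 0.44, adjusted p = 0.000313). H2-DMa, which loads peptides, fell from 5.94, 5.69 and 5.85 to 3.95, 3.63 and 4.28 (-1.87 ± 0.30, adjusted p = 0.000776). Ciita, the master regulator of class II, overlapped between genotypes (adjusted p = 0.721). Of 18 class I presentation genes 3 rose, among them Tap1 (3.13 ± 0.63, adjusted p = 0.00282), and 6 fell, among them Psme1 (-1.67 ± 0.28, adjusted p = 0.000974). Nlrc5 rose by 2.89 ± 0.41, but another probe and the authors' deposited series matrix put it at -1.14, so its direction is uncertain.

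Genes of other cell types that lung washes or a sort can hold were read as whole lists. Dendritic cell genes were higher in 11 of 15 tested and lower in 1, and 11 of the 15 were above background on all WT arrays. Flt3, a receptor of dendritic cell precursors, measured -4.23, -3.18 and -3.87 in WT and 0.99, 1.34 and 1.45 in Bach2 KO, and Cd209a was at least 146-fold higher. The summed linear signal of the list was 86.1 to 173 in WT and 161 to 185 in Bach2 KO. Most of the WT sum came from Bst2 and Siglech, which were not higher in Bach2 KO, while Ccr7, Ccl17 and Batf3 added more in Bach2 KO. Xcr1, a defining marker of conventional type 1 dendritic cells, was not above background on any of the 6 arrays. Clec9a of the same list was above background on 2 WT and all 3 Bach2 KO arrays, and Dpp4 on no WT and all 3 Bach2 KO arrays. Zbtb46, a further dendritic cell marker, was above background on all 6, from -3.33 to -2.63 in WT and from -3.43 to -2.63 in Bach2 KO.

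T cell genes rose in 8 of 15 tested and fell in 1, and 7 of the 15 were above background on all WT arrays. Il7r, the IL-7 receptor, measured -8.02, -4.63 and -8.17 in WT, above background on 1 array, and 4.65, 4.91 and 4.51 in Bach2 KO (11.63 ± 0.95, adjusted p = 4.82e-06). Lck, a T cell kinase, rose from -3.68, -2.61 and -3.5 to 0.50, 0.16 and 0.42 (3.62 ± 0.40, adjusted p = 5.38e-05). Cd2 fell from 7.19, 6.64 and 6.27 to 3.58, 3.42 and 3.36 (-3.24 ± 0.28, adjusted p = 6.92e-06) and decides the summed signal of the list, which was 79.4 to 149 in WT and 38 to 46.4 in Bach2 KO. Cd3e was measured at -1.45 to -0.86 in WT and -1.97 to -1.35 in Bach2 KO, and Cd8a was not above background on 5 of the 6 arrays. Cd3g, above background on 1 WT array, went from -8.0, -5.2 and -7.3 to -2.5, -2.2 and -2.5. Cd3d, Tcf7 and Skap1 were above background on no WT array and on all 3 Bach2 KO arrays. The part of T cells and dendritic cells in these changes was not tested.

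The other lists held few tested genes. Of 5 B cell genes tested 2 rose, Cd79b and Vpreb3, which were above background on none and 1 of the 3 WT arrays. Cd79b was at least 16.3-fold higher and lost its call in the authors' deposited series matrix (adjusted p = 0.0547), and Ms4a1 did not pass the background filter. Among 6 NK cell genes, 3 of them above background on all WT arrays, 2 rose, Il2rb and Klra8 (4.75 ± 0.66, adjusted p = 0.000263), and Prf1 fell by 1.22. Il2rb and Klra8 were each above background on 2 of 3 WT arrays and on all 3 Bach2 KO arrays. Il2rb lost its call in 9 settings (adjusted p = 0.111 without Bach2 KO replicate 1) and Prf1 in 2 (adjusted p = 0.308 without scaling and 0.0738 within slide 1). Ncr1 was not above background on any array. Of 11 neutrophil genes 1 rose and 3 fell, with a summed signal of 111 to 152 in WT and 61.5 to 73.4 in Bach2 KO. Csf3r decides this sum, at 6.49, 6.41 and 6.81 in WT and 5.71, 5.91 and 5.60 in Bach2 KO. Its fall of 0.83 turned to 0.080 without a call under quantile normalization. The 1 tested eosinophil gene, Ear6, fell by 4.01, and Epx and Prg3 were not above background anywhere. Lung epithelial genes were lower in 4 of 11 and higher in 1. Scgb3a1, a secretory protein of airway cells, measured 2.09, -0.65 and 3.16 in WT and -2.86, -4.63 and -6.03 in Bach2 KO (adjusted p = 0.00271), and Hopx rose by 3.16 ± 0.45. The 3 airway secretory genes that fell, Scgb1a1, Scgb3a1 and Cyp2f2, were all lowest in replicate 2 among the WT mice, and Scgb1a1 lost its call in 8 settings (adjusted p = 0.22 within slide 1). The summed epithelial signal was 62.8 to 83.9 in WT and 66.8 to 86.9 in Bach2 KO, but this sum joins opposite moves. Hopx went from 2.64, 1.95 and 0.78 to 5.21, 4.62 and 5.03, and Abca3 from 4.13, 3.97 and 4.43 to 2.94, 2.85 and 2.70. Vessel and fibroblast genes rose in 2 of 7, Pecam1 and Cdh5, though Pecam1 lost its call in 8 settings (adjusted p = 0.194 within slide 1). Of the rest, mast cell genes rose in 1 of 2, Kit, and of 3 red cell and platelet genes 1 rose and 1 fell.

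Lipid storage genes were lower. Of 31 tested, 16 fell and 2 rose, with a median of -1.15 against -0.32 for all genes and -0.46 against -0.16 under quantile normalization. G0s2, an inhibitor of the main triglyceride lipase, fell 16.2-fold, from -0.29, -0.90 and -0.83 to -4.63, -4.74 and -4.70, with 2 of 3 Bach2 KO arrays above background (-4.02 ± 0.30, adjusted p = 2.41e-06). Acsl3, a fatty acyl-CoA synthetase of lipid droplets, was one of the 2 rises, from -0.13, -0.43 and -1.37 to 1.46, 1.61 and 0.49 (1.83 ± 0.40, adjusted p = 0.00471). Fatty acid oxidation genes fell in 16 of 32 and rose in 3, with a median of -0.70 against -0.32 for all genes in the main scaling. Acaa1b, a thiolase of peroxisomes, fell from 6.52, 5.71 and 5.95 to 3.38, 3.13 and 3.38 (-2.76 ± 0.26, adjusted p = 1.61e-05). Cpt2 fell by 1.98 in its brightest probe, with a value of 0.21 and no call when its probes were averaged.

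Cholesterol handling moved in both directions. Abca1 and Abcg1, exporters of cholesterol, fell from 2.46, 2.53 and 1.89 to 0.30, 1.37 and 0.22 (-1.66 ± 0.33, adjusted p = 0.00257) and from 6.93, 7.10 and 6.30 to 5.06, 5.32 and 4.69 (-1.75 ± 0.27, adjusted p = 0.000516). Without scaling, Abca1 lost its call at -0.97 (adjusted p = 0.0703). Soat2, a cholesterol-esterifying enzyme, rose 120.5-fold, from -4.35, -2.80 and -3.76 to 3.23, 2.88 and 3.72 (6.91 ± 0.53, adjusted p = 3.15e-06), and Cyp7b1, an oxysterol hydroxylase, was at least 8.2-fold higher. Over this list of efflux genes 8 of 22 rose and 9 fell, with 18 of the 22 above background on all WT arrays. Over the synthesis list, 7 of 33 genes rose and 11 fell, and Elovl6, a fatty acid elongase, fell by 3.19. Genes that break down lipid in lysosomes were mixed as well: Npc1, the cholesterol transporter, rose by 1.91 ± 0.32, Pla2g15, a phospholipase that degrades surfactant lipids, fell by 1.52 (adjusted p = 0.00143), and Lipa overlapped between genotypes (adjusted p = 0.965). The uptake receptors Cd36 and Msr1 rose by 2.51 ± 0.22 and 1.45 ± 0.29, while Marco and the HDL receptor Scarb1 (-3.09 ± 0.32, adjusted p = 2.92e-05) of the same list fell.

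Genes of leukotriene and prostaglandin synthesis moved apart as well. Of 24 tested, 8 rose and 5 fell. Alox5, which starts leukotriene synthesis, fell 50-fold, from 5.52, 5.27 and 5.57 to 0.11, -0.56 and -0.12 (-5.65 ± 0.31, adjusted p = 2.83e-07). Ltc4s, which makes leukotriene C4, fell 17-fold, from 7.31, 6.79 and 7.38 to 3.62, 3.55 and 2.03 (-4.09 ± 0.39, adjusted p = 1.67e-05). Pla2g5, a secreted phospholipase A2, was at least 21.6-fold higher at -1.07, -1.58 and -1.23. All WT arrays were above all Bach2 KO arrays for Alox5 and Ltc4s.

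Most genes of cell division were lower. Of 31 mitosis genes tested, 28 fell and none rose, and of 36 DNA replication genes 29 fell and none rose. Their medians were -2.04 and -1.58, and they stayed below the median of all genes under quantile normalization (-1.90 and -1.27 against -0.16) and without scaling (-1.35 and -0.89 against 0.37). Cdk1, the mitotic kinase, fell from 3.28, 3.43 and 2.98 to 0.94, 1.29 and 0.66 (-2.26 ± 0.25, adjusted p = 5.67e-05), and Prc1, which bundles spindle microtubules, from 3.55, 4.15 and 4.51 to 1.33, 1.38 and 0.76 (-2.91 ± 0.34, adjusted p = 7.64e-05). Tk1, thymidine kinase, fell 17.7-fold, from 5.52, 4.98 and 5.99 to 1.56, 1.23 and 1.27 (-4.14 ± 0.40, adjusted p = 1.85e-05), and Mcm6 of the replicative helicase by 2.10 (adjusted p = 3.87e-05). The arrays of the genotypes did not overlap for these 4 genes, which were chosen for small adjusted p-values. Of 23 cell cycle inhibitors and p53 targets 5 rose and 3 fell. Gadd45a rose 21.8-fold (4.45 ± 0.30, adjusted p = 1.07e-06), Cdkn1a, which encodes p21, rose by 1.13 ± 0.20 (adjusted p = 0.00133, but 0.088 in the authors' deposited series matrix), and Cdkn2a was not called (1.88 ± 0.73, adjusted p = 0.0612).

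Ribosomal protein and respiratory chain genes were lower, with sizes that depended on the scaling. Of 37 cytosolic ribosomal protein genes, 34 fell and none rose, with a median of -1.16. Under quantile normalization 11 of the 37 were called lower with a median of -0.31 against -0.16 for all genes. Rps15 measured 7.78, 6.89 and 7.90 in WT and 6.07, 5.79 and 4.87 in Bach2 KO, the lowest value coming from replicate 3. Of 35 respiratory chain and ATP synthase genes 24 fell and none rose, with a median of -1.21. Under quantile normalization 11 fell and 5 rose, with a median of -0.28. Ndufa4 fell from 6.98, 6.14 and 6.52 to 4.57, 4.74 and 3.22 (-2.37 ± 0.40, adjusted p = 0.000953). Glycolysis genes were mixed, with 8 of 30 higher and 11 lower: Fbp1, a gluconeogenic enzyme, rose from -0.95, -0.55 and -0.07 to 5.73, 6.11 and 5.05 (6.15 ± 0.35, adjusted p = 3.52e-07), Eno2, an enolase, rose 60.9-fold, and Aldoc, an aldolase, fell 5.63-fold. Lysosomal genes fell in 9 of 33 and rose in 5 in the main scaling but fell in 0 and rose in 15 under quantile normalization, so no direction is given for them. Among subunits of the proton pump, Atp6v1h and Atp6v1b2 rose by 2.50 ± 0.38 and 2.23 ± 0.46. Another subunit, Atp6v0d2, did not rise, at 7.48, 6.99 and 6.81 in WT and 6.46, 6.62 and 6.37 in Bach2 KO.

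**Figure D4:**
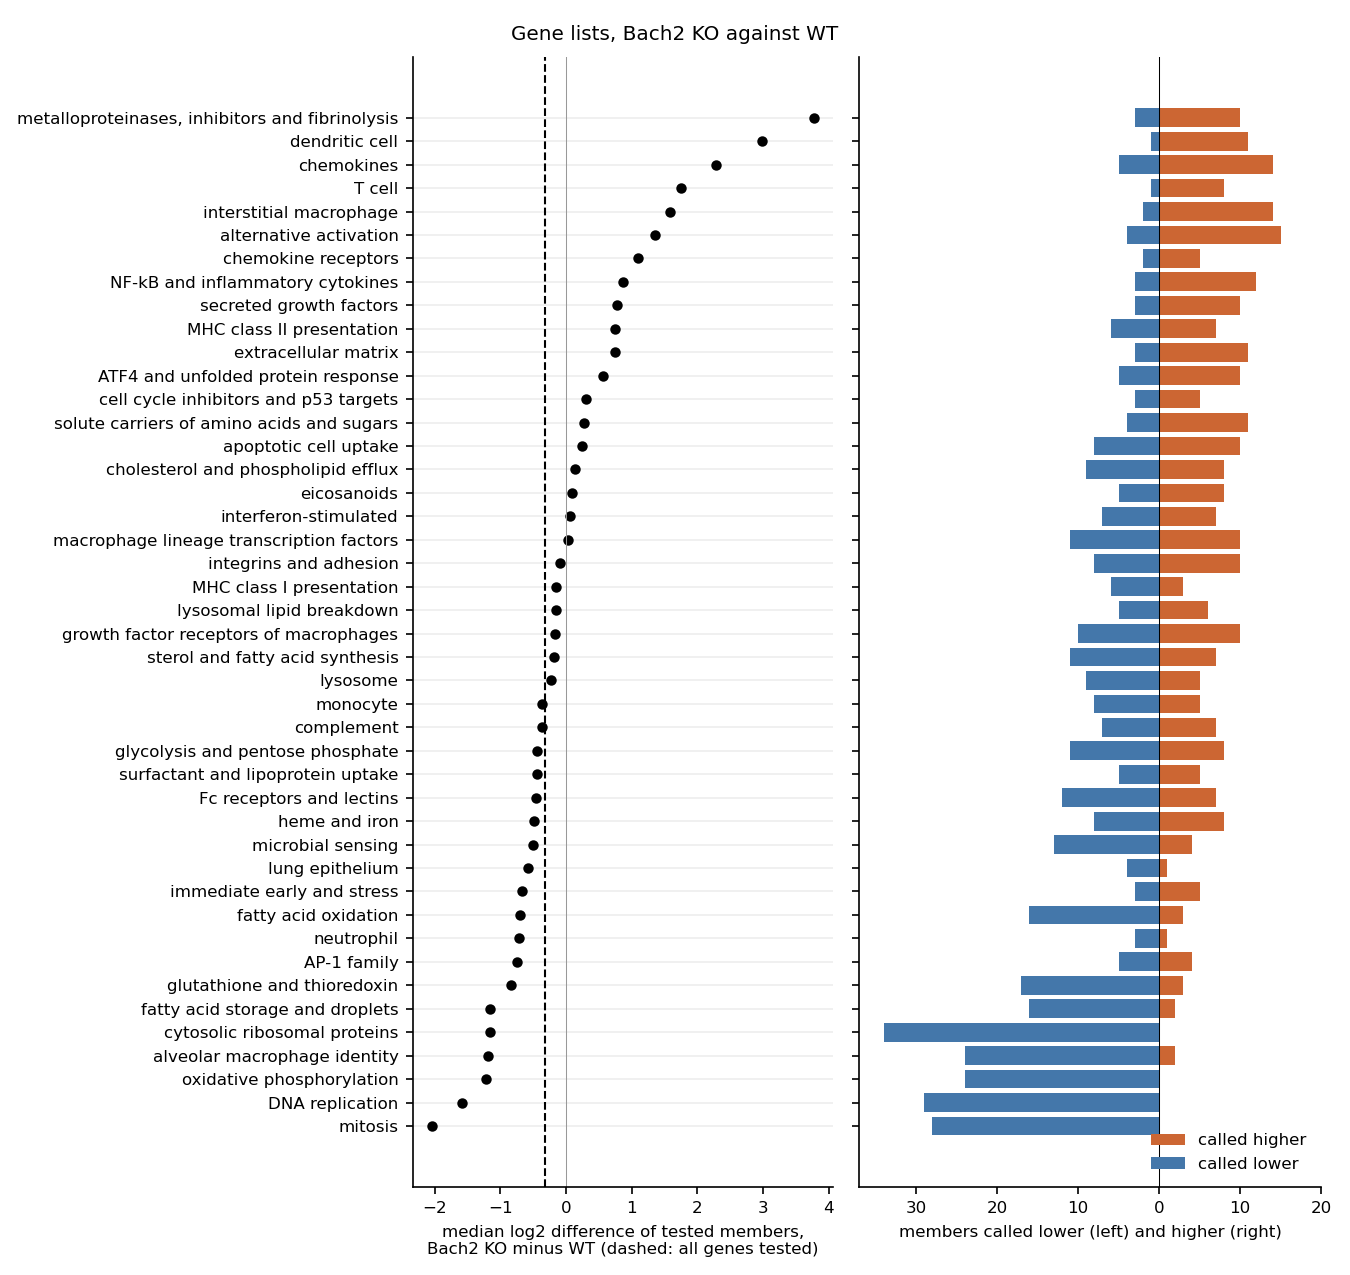
Each row is a gene list with at least 10 tested members. The left panel shows the median log2 difference, Bach2 KO minus WT, with the median of all genes at -0.32 dashed, and the right panel counts members called lower and higher. Metalloproteinases, dendritic cell genes and chemokines lie at the top, and mitosis and DNA replication genes at the bottom.

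Genes of stress, iron and antioxidant defence were compared because Bach factors are known for their heme- and redox-responsive targets. Hmox1, the heme oxygenase that Bach1 represses, was not called with Bach1 intact, at 5.04, 4.95 and 6.37 in WT and 5.11, 5.05 and 4.83 in Bach2 KO (adjusted p = 0.302), and neither was Gclm (0.09 ± 0.24, adjusted p = 0.781). Slc40a1, the iron exporter ferroportin, fell 49.3-fold, from 2.16, 3.13 and 3.33 to -1.68, -2.37 and -4.21 (-5.62 ± 0.54, adjusted p = 1.68e-05). Tfrc, the transferrin receptor that imports iron, rose 35.6-fold, from -0.34, -0.80 and -1.62 to 4.15, 4.04 and 4.51 (5.16 ± 0.37, adjusted p = 1.72e-06). The iron importer was thus higher and the exporter lower in every Bach2 KO mouse. Over heme and iron genes, 8 of 26 rose and 8 fell. Glutathione and thioredoxin genes fell in 17 of 33 and rose in 3, with a median of -0.84 against -0.32 for all genes in the main scaling. Mgst3 fell from 4.35, 5.37 and 5.05 to 0.48, 1.73 and -0.36 (-4.30 ± 0.45, adjusted p = 3.58e-05), and Slc7a11, the cystine importer, rose from -1.38, -0.87 and 0.12 to 3.06, 3.13 and 3.21 (3.84 ± 0.38, adjusted p = 2.29e-05).

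Genes of the ATF4 and unfolded protein response rose in 10 of 24 tested and fell in 5. Asns, asparagine synthetase, rose 24-fold, from -0.93, 0.00 and 0.37 to 4.36, 4.19 and 4.65 (4.58 ± 0.35, adjusted p = 2.76e-06). Mthfd2, a mitochondrial folate enzyme, rose from 0.84, 0.58 and 0.56 to 3.89, 3.29 and 4.46 (3.22 ± 0.38, adjusted p = 7.45e-05). Phgdh, the first enzyme of serine synthesis, fell from 5.50, 5.42 and 5.56 to 3.94, 3.93 and 4.24 (-1.45 ± 0.22, adjusted p = 0.000499), though not without scaling (-0.76, adjusted p = 0.075). NF-kB and inflammatory cytokine genes rose in 12 of 28 and fell in 3. Traf1, a signalling adaptor and NF-kB target, rose from -0.30, -2.78 and -1.31 to 3.49, 2.98 and 3.81 (4.89 ± 0.64, adjusted p = 0.000167). Tnfsf9, the ligand of 4-1BB, rose from -2.08, -4.10 and -3.58 to 1.63, 1.62 and 1.04 (4.68 ± 0.44, adjusted p = 1.41e-05). Sensors of microbes fell in 13 of 33 and rose in 4, against 25.7% and 12.4% of everything tested. Tlr1 rose by 6.52 ± 0.70, with 2 of 3 WT arrays above background, while Tlr2, Tlr5 and Nod1 fell by 1.36, 4.98 and 1.48. Without scaling Tlr2 and Nod1 lost their calls (adjusted p = 0.07 and 0.0804), and Tlr5 was above background on 1 of 3 Bach2 KO arrays. Interferon-stimulated genes were balanced, with 7 of 31 higher, Usp18 among them (4.86 ± 0.63), and 7 lower, Igtp among them (-1.11 ± 0.23, adjusted p = 0.00344, but 0.347 without scaling).

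Genes for uptake of dying cells, not all of them receptors, rose in 10 of 24 tested and fell in 8. Of the 24, 16 were above background on all WT arrays. Axl, a receptor tyrosine kinase of alveolar macrophages, fell 4.76-fold, from 6.39, 6.48 and 6.22 to 4.41, 3.93 and 4.0 (-2.25 ± 0.20, adjusted p = 8.12e-06). Fc receptor and lectin genes fell in 12 of 30 and rose in 7, against 25.7% and 12.4% of everything tested. Fcgrt, the neonatal Fc receptor, fell 14.6-fold, from 5.42, 5.43 and 4.6 to 1.24, 0.61 and 2.01 (-3.87 ± 0.33, adjusted p = 7.72e-06), and Siglec1, the sialoadhesin of tissue macrophages, fell 9.12-fold (-3.19 ± 0.33, adjusted p = 2.89e-05). Solute carriers rose in 11 of 25 and fell in 4. Slc6a8, the creatine transporter, rose from -3.25, -1.73 and -0.69 to 4.55, 4.09 and 4.75 (6.35 ± 0.51, adjusted p = 4.63e-06).

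Bach1 KO mice gave a second reference for the same Bach2 KO arrays. Against Bach1 KO, 7583 of 22343 genes were called (33.9%), and Bach1 KO against WT gave 14 calls (0.0627%). The comparisons share arrays, so their values are only set side by side. Against Bach1 KO the difference of Marco was -5.40 and against WT -5.29. For Fbp1 the values were 6.15 against WT and 11.93 against Bach1 KO, and Bach1 KO against WT was -5.78 (adjusted p = 4.29e-05). Tnfsf14, the cytokine LIGHT, rose by 3.11 ± 0.35 against WT (adjusted p = 5.58e-05) but differed by -0.09 ± 0.35 from Bach1 KO (adjusted p = 0.856), and was higher in Bach1 KO than in WT (3.20, adjusted p = 0.00479). Hmox1 differed by -2.13 between Bach2 KO and Bach1 KO (adjusted p = 0.000574).

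**Figure D5:**
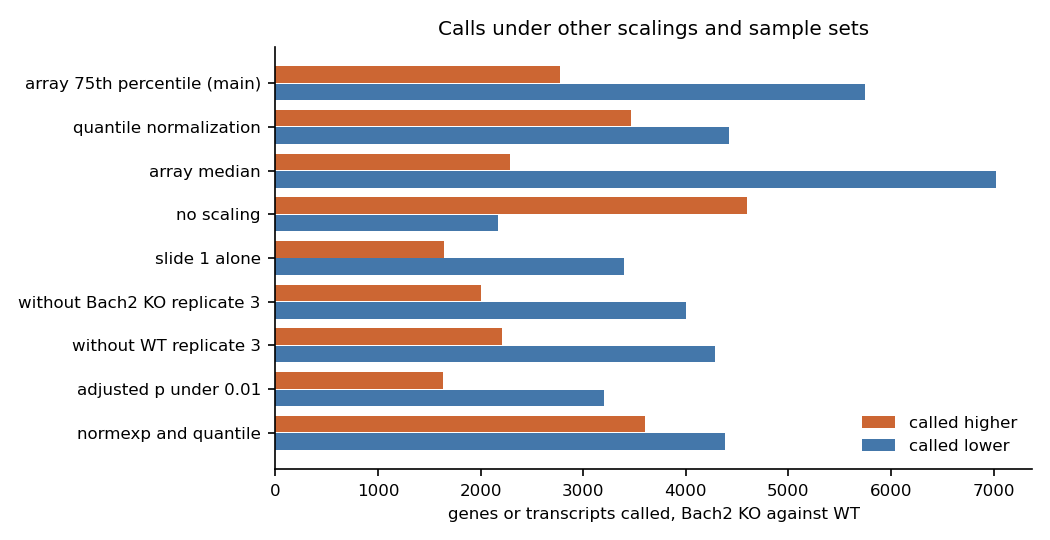
Bars count genes or transcripts called higher and lower in Bach2 KO against WT (x axis) under the main scaling, other scalings, slide 1 alone, the arrays without replicate 3 of either genotype and a stricter threshold. Falls outnumber rises in each setting shown except without scaling, where 4599 were higher and 2171 lower.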

How the data were processed

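RNA of sorted alveolar macrophages was labelled with Cy3 and hybridised to 1-colour Agilent arrays, 1 array per mouse and 3 mice per genotype. The deposited intensity values are the scanner's processed signals, background-subtracted by Agilent Feature Extraction 10.7.3.1 per the file headers (version 9.1 in the submitters' processing notes). The deposited series matrix holds log2 values that tracked the scanner signals, and the sources used here do not state how the authors centred them. It was used as an alternative only.

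Signals were scaled to each array's 75th percentile of non-control spots, then log2 was taken. Outlier spots and control spots were left out, spots of a probe were averaged, and probes were kept where all 3 arrays of either genotype were well above background. A gene was read by its brightest probe. Probes without a symbol were joined by accession. That joining, and the demand that every spot of a probe be above background, were settled after first results had been seen, and the other settings are given as added alternatives. Differences were tested with limma 3.58.1 in R 4.3.3 (lmFit and eBayes with a trend, all 12 arrays, 8 residual degrees of freedom, Benjamini-Hochberg adjustment), checked on simulated data.

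The comparison and the gene lists were chosen with earlier results of these data known, so counts over lists are descriptions. Named genes are the targeted genes, a list of key genes, the 12 largest measured changes and the 8 largest bounds in each direction, and, per list, up to 4 members with the smallest adjusted p and the first in the opposite direction. The number of mice limits the precision, and the errors cover the spread between mice.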

Additional observations from a re-analysis of the deposited data

How the results depend on the processing

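Of 226 named genes called, 189 kept the call in every setting in which they were tested, 35 lost it in at least 1 and 6 changed direction. Csf2ra turned to 0.21 under quantile normalization, 0.079 without scaling and 0.22 with normexp, Csf3r to 0.080 and 0.087 under quantile normalization and normexp, and Itgax to 0.16 under each of these. With the probes of a gene averaged, Cpt2 was at 0.21 and Csf2rb at 0.073, and in the series matrix Nlrc5 was at -1.14.

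Without scaling 4599 genes were called higher and 2171 lower, and array weights gave 4329 higher. Within slide 1 there were 5038 calls (1644 higher, 3394 lower), and 4248 against Bach1 KO. At an adjusted p under 0.01 there were 4837 (1630 higher, 3207 lower), and 4043 against Bach1 KO. Leaving out 1 mouse at a time gave 6010 to 9381 calls, 2004 to 3176 higher and 4006 to 6205 lower, and 5221 to 7995 against Bach1 KO. The lowest total against WT came without Bach2 KO replicate 3. The 2 alternatives chosen after seeing the data gave 8522 calls (a looser rule on the spots of a probe) and 9279 of 25685 (unnamed probes kept apart).

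The replicate numbers showed no pairing of WT with Bach2 KO mice: deviations of same-numbered arrays correlated at 0.03, 0.06 and -0.14. Over the other pairs of genotypes in the fit the values ranged from -0.16 to 0.39. Replicate 2 gave both ends, the lowest between Bach1 KO and Bach2 KO and the highest between WT and Bach1 KO. A fit with the replicate number as a block gave 8485 calls, 2808 higher and 5677 lower. Genes near background have only bounds, and the slide of Bach2 KO replicate 3 held no WT array.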
